A study of Arabidopsis thaliana with 12 samples.

Results

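The fab1 seedlings were profiled on 2 of the 12 arrays of the series, 1 from ambient temperature and 1 from the cold. Arrays were assigned to lines by sample title. The 2 fab1 arrays were set against the 8 arrays of Col-0, Col-aeq, 35S-FAD3 and fad3/7/8, with temperature as a block. The line fad2 was left out of the comparison, having been taken as the most distant line. The series concerns the part of membrane fluidity in the sensing of low temperature, and each of its 6 lines has 1 ambient and 1 cold array of whole Arabidopsis thaliana seedlings at growth stage 1.02. Sown seeds were kept in a fridge for 4 days, and the plants then grew on MS at 20 °C in a 16 h day and an 8 h night. How cold the treatment was, and how long it lasted, is not given in the sources used here.

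Of the lines compared, fab1 is an EMS mutant. Col-0 is the Columbia wild type, and Col-aeq is, by its name, a Columbia line with the apoaequorin calcium reporter. The line 35S-FAD3 is named in its titles for a linoleate desaturase gene behind the 35S promoter, while its genotype label names 35S::apoaequorin alone. It was grouped by its title. The line fad3/7/8 was made by crossing double mutants, themselves from EMS single mutants, and carries apoaequorin by its titles. The line fad2, given only for side-by-side values, is also an EMS mutant. Because fab1 is 1 line with 1 array for each temperature, an effect of its mutation and whatever else its 2 arrays shared cannot be told apart. The p-values below therefore measure only the spread between these samples, which may be technical.

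FAB1 encodes KASII, the plastid enzyme that extends palmitoyl-ACP to stearoyl-ACP, the step at which fatty acid synthesis leaves the palmitate length. In the fab1 mutant this step is weakened, and its membrane lipids hold more palmitate and are more saturated than those of the wild type. Such plants are known to grow normally at ordinary temperatures and to decline only after long chilling. The FAB1 locus, AT1G74960 on chromosome 1, had no named probe set in the annotation used here (0 probe sets), and neither had any desaturase gene, so the genotypes were not checked on the arrays.

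Array quality differed in 1 line. The actin 3′ to 5′ signal ratio was 1.99 and 2.13 on the fab1 arrays, against 7.0 on the Col-aeq ambient array and 1.96 to 2.21 on the others. The 25S rRNA signal was 137.1 and 186.1 in fab1, against 2462.9 and 849.3 in Col-aeq and 99.1 to 472.6 on the others. The fab1 arrays correlated with those of the 4 lines at r = 0.941 to 0.978 at ambient temperature and, in the cold, 0.979 to 0.983, across probe sets, which are not independent. The lowest of these values was with the Col-aeq ambient array, and lay below the 0.948 between fab1 and fad2 at ambient temperature. In the cold fad2 correlated with fab1 at 0.962, below the 4 lines.

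No transcript separated fab1 from the other 4 lines at the level of the fitted test. Of 14107 probe sets with a mean MAS5 signal of 20 or more, 0 (0%) passed a Benjamini-Hochberg adjusted p of 0.05 in limma, and the lowest adjusted p was 0.999. At an unadjusted p under 0.05 there were 230 (1.63%), of which 57 were higher and 173 lower in fab1. The median difference over all probe sets was −0.007 on the log2 scale, with a median standard error of 0.195 for a single probe set. Differences over 1 log2 unit were found for 3 probe sets that were higher in fab1 and 15 that were lower.

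Ranges give a second description. Any single line lies outside the others for some probe sets, and the same count was not made for the other lines. The fab1 signal lay above all 4 lines at ambient temperature and again in the cold for 368 probe sets (2.61%), and below all 4 at both temperatures for 501 (3.55%). The split depended on how the arrays were scaled: it was 449 above and 403 below after quantile normalization, and 460 above and 425 below after centring each array on its median. Most of these probe sets lay just beyond the nearest line. The gap, taken as the smaller over both temperatures of the log2 distance from fab1 to the nearest of the 4 lines, had a median of 0.04 for the probe sets above and 0.06 for those below. A gap over 0.5 occurred for 0 probe sets above and 7 below, and a gap over 0.25 for 10 above and 29 below. At the edge of the range, AT3G24190 gave 687.3 and 1237.7 in fab1, against highest values of 657.6 and 1237.5 in Col-0, and was just outside. AT1G02020 gave 62.8 and 59.4 in fab1 and tied with fad3/7/8 at 59.4 in the cold, which kept it inside. On the lower side, AT3G17160 gave 80.8 and 76.3 in fab1, against lowest values of 80.9 in Col-0 and 77.2 in fad3/7/8, and was just outside.

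**Figure D1:**
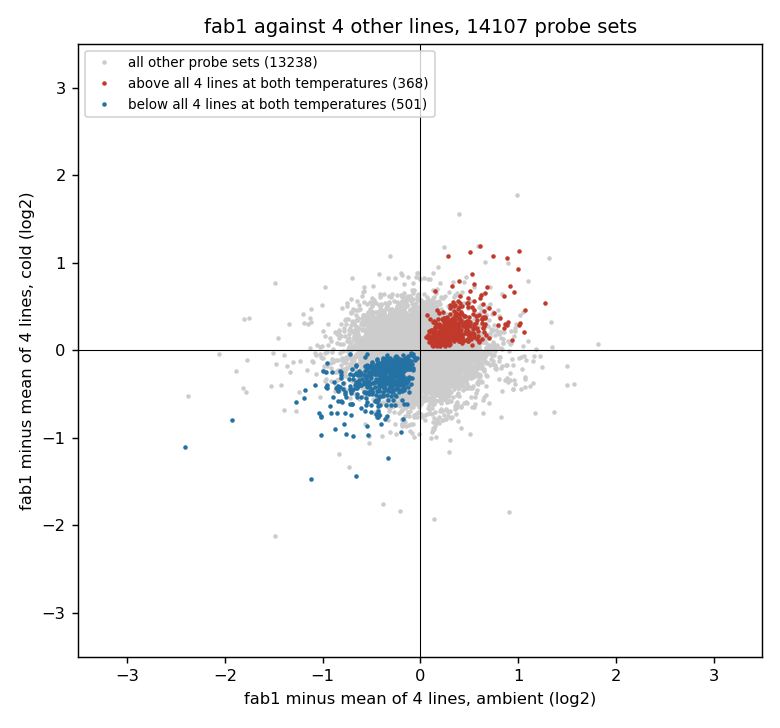
Difference between fab1 and the mean of the other 4 lines for 14107 probe sets, at ambient temperature (horizontal, log2) and in the cold (vertical, log2). Each point is a probe set; the 368 above all 4 lines at both temperatures are red, the 501 below are blue and the rest are grey, and most points of all colours lie within 1 log2 unit of 0.

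The probe sets below the 4 lines were dimmer than those above. Their median of mean signals was 62.2, against 116.8 for the probe sets above and 88.8 for all 14107. Single genes were named for 175 of the probe sets above and 275 of those below, out of 7562 tested probe sets with 1 listed gene. A further 297 probe sets lay above the 4 lines at ambient temperature and below them in the cold, and 277 did the reverse. The values of the 12 genes with the largest gap on each side are described next. They were chosen for these values, so they carry no test of their own, and the adjusted p of each was 0.999.

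Among the genes above the 4 lines, CCMH, a component of cytochrome c maturation in mitochondria, had the largest gap. Its ambient signal was 48.9 in fab1, against 35.1 in Col-0, 28.3 in Col-aeq, 35.1 in 35S-FAD3 and 33.9 in fad3/7/8. In the cold CCMH gave 29.6 in fab1, against 16.9 in Col-0, 16.6 in Col-aeq, 13.7 in 35S-FAD3 and 21.2 in fad3/7/8. Both fab1 values thus exceeded every value of the 4 lines at the same temperature, and the fitted difference was 0.65 (SE 0.211) on the log2 scale. The fad2 arrays gave 23.0 and 8.4.

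SGT1A belongs to a family of HSP90 co-chaperones with a role in the stability of immune receptors. At ambient temperature its signal was 193.1 in fab1, against 140.4 in Col-0, 149.1 in Col-aeq, 134.6 in 35S-FAD3 and 149.4 in fad3/7/8. The cold SGT1A signal was 147.4 in fab1, against 119.7 in Col-0, 91.2 in Col-aeq, 100.1 in 35S-FAD3 and 105.2 in fad3/7/8. The 4 lines lay close together at ambient temperature, and Col-0 came nearest to fab1 in the cold. SGT1A differed by 0.46 (SE 0.141).

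ACT11 encodes an actin isoform best known from pollen and other reproductive tissue. It gave 85.4 at ambient temperature in fab1, against 55.9 in Col-0, 48.6 in Col-aeq, 57.3 in 35S-FAD3 and 53.0 in fad3/7/8. Its cold values were 75.0 in fab1, against 48.3 in Col-0, 58.6 in Col-aeq, 62.3 in 35S-FAD3 and 61.2 in fad3/7/8. The 8 values of the other lines fell in a narrow band, and the fitted difference was 0.52 (SE 0.159). Actins are close copies of each other, and how far the ACT11 probe set also reads other actin transcripts was not tested.

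AT2G24600, which the tables used here list without a further name, gave 44.1 and 45.8 in fab1, against 28.6 to 33.5 at ambient temperature and, in the cold, 23.5 to 31.4 in the 4 lines. The fad2 values for AT2G24600, 36.0 and 49.0, reached the fab1 level in the cold. The other 8 genes above the 4 lines were AT1G36060, AT1G19380, AT5G43790, AT3G50560, AT5G24210, AT4G01570, AT1G72820 and AT2G44210. Their fitted differences were between 0.27 for AT1G72820 and 1.07 for AT2G44210. AT2G44210 gave 340.4 and 291.7 in fab1, against 55.1 and 21.5 in 35S-FAD3, on which its size rested. The other 3 lines gave 178.5 to 301.9 for AT2G44210 at ambient temperature and, in the cold, 230.9 to 243.3. For AT1G36060 the cold signal was 23.5 in fab1, against 15.9 in Col-0, 2.9 in Col-aeq, 8.5 in 35S-FAD3 and 16.8 in fad3/7/8. Its difference of 0.90 was 0.67 without the Col-aeq line.

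The genes below the 4 lines had wider gaps. AT1G73930 had the widest among single genes, with 22.4 in fab1 at ambient temperature, against 51.1 in Col-0, 37.7 in Col-aeq, 44.9 in 35S-FAD3 and 37.4 in fad3/7/8. In the cold AT1G73930 gave 23.5 in fab1, against 57.6 in Col-0, 36.8 in Col-aeq, 49.8 in 35S-FAD3 and 39.9 in fad3/7/8. The fab1 signal was nearly the same at both temperatures and so were the signals of each other line, and the difference was −0.89 (SE 0.199). In fad2 AT1G73930 gave 58.5 and 29.1. AT1G73930 lies on chromosome 1, 136 annotated genes from FAB1.

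AT5G02890 gave 27.9 and 33.9 in fab1, against 42.5 to 65.8 at ambient temperature and, in the cold, 49.9 to 56.9 in the 4 lines. AUR3, an Aurora kinase that phosphorylates histone H3 in mitosis, gave 12.1 and 12.3 in fab1. The 4 lines gave 18.1 to 30.5 for AUR3 at ambient temperature and, in the cold, 18.4 to 26.0. Both AT5G02890 and AUR3 differed by −0.78, with an SE of 0.193 for AT5G02890 and 0.265 for AUR3, and the fad2 values of both (87.3 and 73.8, and 32.3 and 35.1) lay above those of fab1 and of the 4 lines. AUR3 signals below 20 are near the filter level, so its size is uncertain.

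PGM (AT1G78050), listed as a phosphoglycerate and bisphosphoglycerate mutase, the kind of enzyme that moves the phosphate of phosphoglycerate in glycolysis, gave 12.1 and 17.1 in fab1. The 4 lines gave 17.5 to 23.9 for PGM at ambient temperature and, in the cold, 23.6 to 31.0, and the difference was −0.66 (SE 0.216). The other 8 genes below the 4 lines were AT4G35840, AT3G49930, AT1G49700, AT5G13610, AT3G09280, AT1G51830, AT4G14020 and AT4G01390. Their differences were between −0.45 for AT4G14020 and −1.29 for AT4G01390. AT4G01390 gave 15.1 and 3.4 in fab1, and its signals varied widely among the other lines, from 18.8 in Col-0 to 60.6 in 35S-FAD3 at ambient temperature and from 5.4 in Col-0 to 24.8 in fad3/7/8 in the cold.

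The widest gap of all belonged to a probe set with no listed gene, at 0.96. It gave 7.1 and 19.4 in fab1, against 33.1 to 58.6 at ambient temperature and, in the cold, 39.2 to 50.7 in the 4 lines. Its difference of −1.75 (SE 0.333) had the lowest unadjusted p of all probe sets, 0.000188 in limma. Its fab1 signals lay below the filter level of 20, so its size is uncertain. The fad2 arrays gave 11.4 and 17.3, close to fab1. A second probe set with no listed gene gave 46.2 and 73.9 in fab1, against 19.2 to 33.6 at ambient temperature and, in the cold, 34.8 to 49.5.

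**Figure D2:**
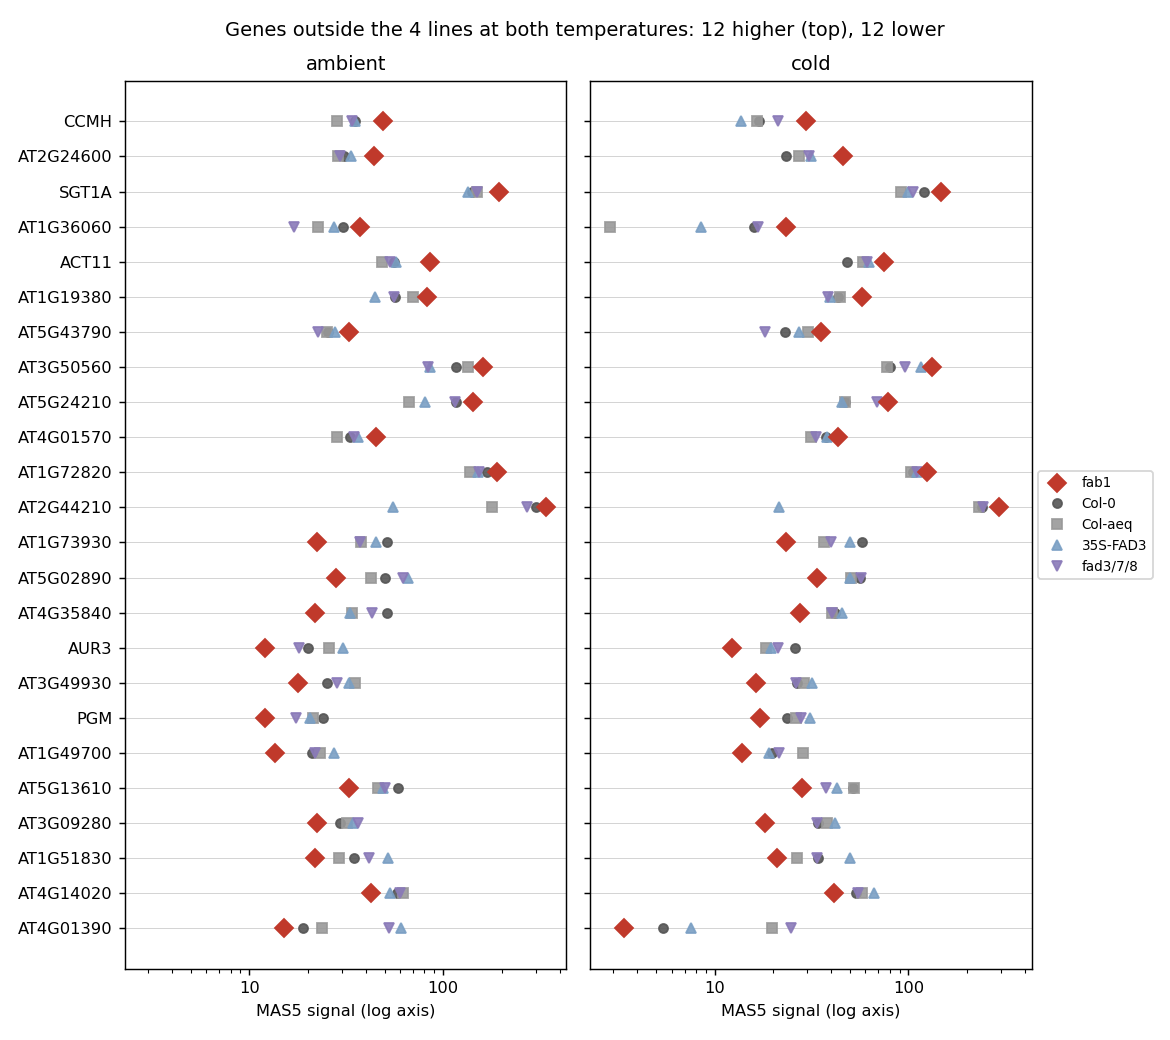
MAS5 signal (log axis) of the 12 genes above and the 12 genes below the other 4 lines with the largest gaps, at ambient temperature (left) and in the cold (right). Each symbol is 1 array, with fab1 as red diamonds; fab1 stands to the right of the 4 lines for CCMH to AT2G44210 and to their left for AT1G73930 to AT4G01390.

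Probe sets outside the 4 lines came from all 5 chromosomes. Of tested single-gene probe sets, the share above the 4 lines was between 1.83% on chromosome 3 and 2.79% on chromosome 2, and the share below between 3.26% on chromosome 1 and 4.41% on chromosome 2. Within 250 annotated genes on each side of FAB1, 138 probe sets were tested, of which 2 (1.45%) lay above and 4 (2.9%) below. These shares were near those of the whole array.

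Fatty acid synthesis, the pathway in which FAB1 acts, was represented by 8 named probe sets out of 28 listed genes. Its list ran from plastid pyruvate dehydrogenase and acetyl-CoA carboxylase through the condensing, reducing and dehydrating enzymes to the thioesterases that release the chain and the export of fatty acids. All 8 were tested and 0 passed in either direction. Their median difference was 0.03, with a range of −0.13 to 0.25, against −0.01 for all probe sets, and 1 of the 8 lay above the 4 lines at both temperatures, against 2.61% of all probe sets. That gene, AT2G34590, gave 537.1 and 607.2 in fab1, against 395.4 to 517.1 at ambient temperature and, in the cold, 491.6 to 557.2.

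FATB, the thioesterase that releases palmitate, gave 422.4 in fab1 at ambient temperature, against 331.5 in Col-0, 299.3 in Col-aeq, 305.4 in 35S-FAD3 and 342.1 in fad3/7/8. In the cold FATB gave 374.4 in fab1, against 373.3 in Col-0, 360.5 in Col-aeq, 411.9 in 35S-FAD3 and 356.1 in fad3/7/8. FATB thus stood above the 4 lines at ambient temperature and within them in the cold, and its difference over both was 0.20 (SE 0.143, unadjusted p = 0.187 in limma). FaTA, the thioesterase that prefers oleate, gave 36.6 and 32.1 in fab1, within the range of the 4 lines at both temperatures, with a difference of −0.13 (SE 0.256).

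The remaining 5 fatty acid synthesis genes lay within the range of the 4 lines at 1 or both temperatures. AT1G24360 differed by 0.04 (SE 0.127), AT2G22230 by 0.02 (SE 0.163), AT3G57280 by 0.03 (SE 0.14), AT5G10160 by −0.01 (SE 0.119) and AT4G13050 by 0.13 (SE 0.142). With standard errors of this size, small differences were not detectable. LCB2, a subunit of serine palmitoyltransferase, which uses palmitoyl-CoA to begin sphingolipid synthesis, gave 138.9 and 104.7 in fab1, against 104.2 to 184.9 and 98.7 to 140.3 in the 4 lines. LCB2 differed by −0.04 (SE 0.213).

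Cold-regulated genes encode dehydrins and other proteins that accumulate in chilled plants and protect membranes during freezing. Of 18 listed genes, 6 had a named probe set, all 6 were tested and 0 passed. Their median difference was −0.46, with a range of −0.97 to 0.01, against −0.01 for all probe sets. COR15A, a chloroplast protein that stabilises membranes, gave 166.0 in fab1 at ambient temperature, against 193.4 in Col-0, 277.5 in Col-aeq, 215.2 in 35S-FAD3 and 318.9 in fad3/7/8. In the cold COR15A gave 1228.2 in fab1, against 1498.5 in Col-0, 1710.1 in Col-aeq, 1423.2 in 35S-FAD3 and 1834.8 in fad3/7/8. It was the one gene of the 6 with fab1 below the 4 lines at both temperatures, against 3.55% of all probe sets. COR15A differed by −0.48 (SE 0.184, unadjusted p = 0.0231, adjusted p = 0.999 in limma).

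COR15B, a close copy of COR15A, gave 75.2 in fab1 at ambient temperature, against 183.1 in Col-0, 349.3 in Col-aeq, 113.3 in 35S-FAD3 and 223.0 in fad3/7/8. In the cold it gave 1270.1 in fab1, against 1262.2 in Col-0, 1417.8 in Col-aeq, 1184.8 in 35S-FAD3 and 1407.5 in fad3/7/8. The lines met in the cold and were apart at ambient temperature, where fab1 was lowest. How far the COR15A and COR15B probe sets read each other's transcripts was not tested.

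COR27 gave 2.9 in fab1 at ambient temperature, against 1.4 to 31.1 in the 4 lines, and 226.6 in the cold, against 155.5 to 430.1. COR27 and AT4G33980 ranged widely among the other lines. The dehydrins LTI30 and COR47 stayed close to the other lines, with differences of −0.08 (SE 0.126) for LTI30 and 0.01 (SE 0.196) for COR47. LTI30 gave 425.6 and 2261.0 in fab1, against 435.4 to 514.3 and 1962.8 to 2489.5.

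**Figure D3:**
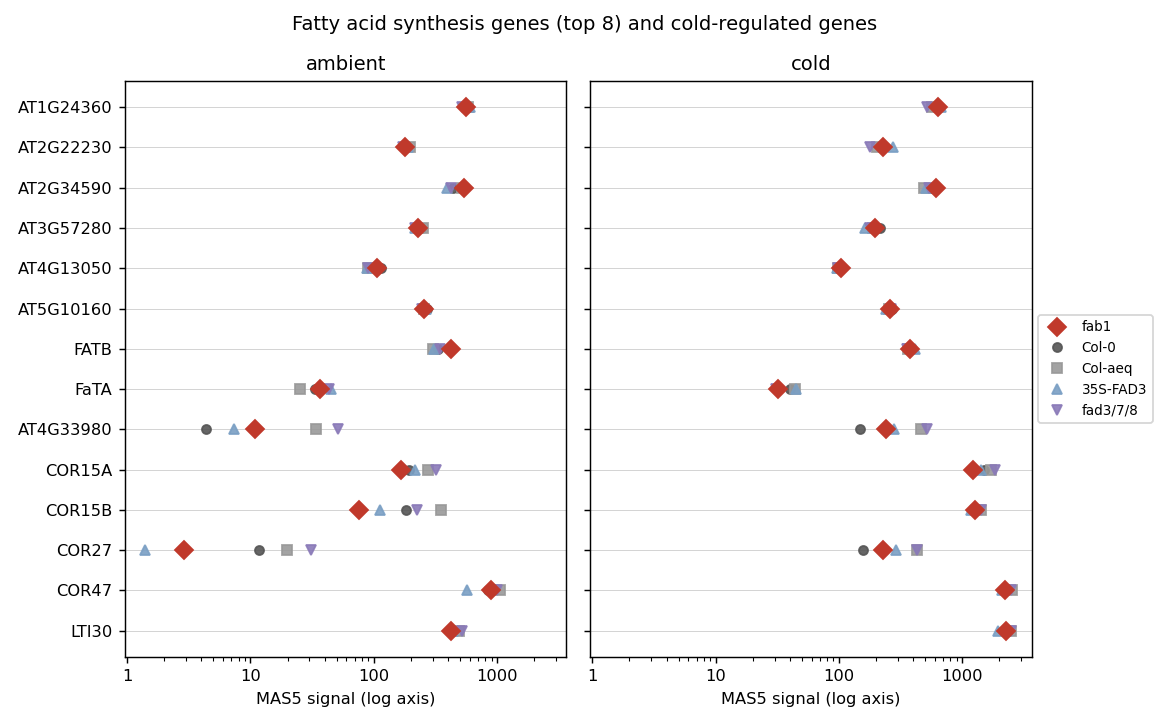
MAS5 signal (log axis) of the 8 fatty acid synthesis genes (top) and the 6 cold-regulated genes (bottom) at ambient temperature (left) and in the cold (right). Each symbol is 1 array, with fab1 as red diamonds; fab1 lies among the 4 lines for most genes and is leftmost at both temperatures for COR15A, with 166.0 at ambient temperature and 1228.2 in the cold.

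The other gene lists held 0 probe sets that passed, in either direction. Of 24 lists, 16 had a named probe set and 15 a tested one, with 111 probe sets in all. Xyloglucan enzymes and expansins, which loosen and remodel the cell wall, had 17 tested members with a median of −0.10. Fab1 lay above the 4 lines at both temperatures in 3 of them (EXLA1, EXGT-A3 and XTH18), against 2.61% of all probe sets, and below in 1 (EXPB1), against 3.55%. EXLA1, an expansin-like protein, gave 192.3 at ambient temperature in fab1, against 90.1 in Col-0, 171.1 in Col-aeq, 84.2 in 35S-FAD3 and 132.6 in fad3/7/8. The cold EXLA1 values were 178.5 in fab1, against 63.8 in Col-0, 64.9 in Col-aeq, 83.0 in 35S-FAD3 and 144.4 in fad3/7/8. EXLA1 differed by 0.91 (SE 0.341). EXGT-A3, a xyloglucan endotransglucosylase, gave 1364.6 and 928.2 in fab1, against 955.1 to 1233.1 and 703.6 to 848.5 in the 4 lines.

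Glutathione S-transferases, which conjugate glutathione to reactive compounds, had 8 tested members with a median of −0.19, and 1 of them lay below the 4 lines, against 3.55% of all probe sets. This was GSTU20, with 437.7 and 452.9 in fab1, against 642.8 to 815.1 at ambient temperature and, in the cold, 463.1 to 769.7. The cold value of 35S-FAD3 was close to fab1, and GSTU20 differed by −0.58 (SE 0.199, adjusted p = 0.999 in limma). GSTU22 gave 40.0 and 41.2 in fab1, against 48.6 to 83.6 and 40.1 to 70.0, with a difference of −0.53 (SE 0.271). Of 12 cytochrome P450s, CYP71B37 and CYP71B28 lay below the 4 lines, against 3.55% of all probe sets, and the median was −0.05. CYP71B37 gave 23.9 and 11.3 in fab1, against 28.0 to 37.5 and 15.1 to 25.4.

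UDP-glycosyltransferases had 25 tested members with a median of 0.03, and 1 of them, UGT76D1, lay below the 4 lines, a share near the 3.55% of all probe sets. UGT73B1 differed by 0.51 (SE 0.3) and UGT73B5 by −0.59 (SE 0.391), both within the range of the 4 lines at 1 or both temperatures. Autophagy genes had 9 tested members and a median of −0.07. ATG8G at −0.28 (SE 0.313) and ATG8C at −0.12 (SE 0.168) had the lowest unadjusted p, while ATG8E stood at 0.16 (SE 0.274). Of 6 calmodulin-like and calcium-binding genes, with a median of 0.11, CML43 differed by −0.60 (SE 0.313) and CML42 by −0.27 (SE 0.207). The other 4 were positive, among them CML41 at 0.29 (SE 0.401) and CML38 at 0.20 (SE 0.475). The 4 WRKY and ERF factors had a median of −0.02, with WRKY20 at 0.16 (SE 0.18) and WRKY6 at −0.10 (SE 0.256). No member of these 3 lists, autophagy, calcium-binding and WRKY and ERF, lay outside the 4 lines on the same side at both temperatures. ZAP1, of the WRKY and ERF list, lay above the 4 lines at ambient temperature and below them in the cold.

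Jasmonate genes were represented by PDF1.2, a plant defensin, and JRG21. PDF1.2 gave 11.4 and 11.2 in fab1, against 79.7 and 46.5 in Col-0, 64.2 and 27.0 in Col-aeq, 18.6 and 15.2 in 35S-FAD3, and 7.4 and 6.4 in fad3/7/8. Its values split the 4 lines themselves, so the difference of −0.98 had an SE of 0.765. JRG21 gave 8.6 and 18.5 in fab1, against 113.7 and 116.3 in Col-0, 16.9 and 69.9 in Col-aeq, 10.9 and 10.4 in 35S-FAD3, and 18.0 and 9.0 in fad3/7/8. The fab1 signal of JRG21 thus lay below the 4 lines at ambient temperature and within them in the cold, and the difference was −1.04 (SE 0.952). BZIP60, a transcription factor of the unfolded protein response, differed by 0.20 (SE 0.15). The ER chaperone partner ATERDJ3B differed by −0.10 (SE 0.135) and the clock gene GI by −0.20 (SE 0.269).

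Markers of shoot and root were above 0 on every array. Only 182 values of all probe sets and arrays were 0, so this does not check the tissue. The label of whole seedlings was kept as given. The summed signal of 5 nuclear photosynthesis genes was 12419.5 and 10161.1 in fab1, against 11119.7 to 13622.7 at ambient temperature and, in the cold, 9530.9 to 11593.6 in the 4 lines. The difference of single photosynthesis genes was −0.21 (SE 0.219) for LHCB4.3 and −0.07 (SE 0.113) for PSBW, and the list median was −0.07. Root markers had a negative difference in 7 of 7 tested members, against 7309 of all 14107 probe sets, with a median of −0.22, and 1 of the 7 lay below the 4 lines at both temperatures, against 3.55% of all probe sets. Their summed signal was 2795.5 and 2585 in fab1, against 2861 to 3375.8 and 2703.5 to 3050.7 in the 4 lines. Most of that sum was PYK10, a beta-glucosidase of root ER bodies, with 2365.5 and 2289.0 in fab1. Without PYK10 the sum was 430 and 296 in fab1, against 364.1 to 576.5 and 307.2 to 473 in the 4 lines, so that fab1 lay above Col-aeq at ambient temperature and below the 4 lines in the cold. AT4G30170 gave 158.7 and 103.8 in fab1, against 160.1 to 238.9 and 128.0 to 160.9, and AT5G17820 gave 66.5 and 52.8, against 82.3 to 104.8 and 51.5 to 118.0. In whole seedlings, fewer cells of a type and less RNA per cell cannot be told apart, and the part of root tissue in the other differences was not tested.

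The cold change, cold minus ambient within a line, was compared between fab1 and the other 4 lines. Again 0 probe sets (0%) passed an adjusted p of 0.05 in limma, with a lowest adjusted p of 1.0, and 347 (2.46%) had an unadjusted p under 0.05. Of these, 243 had a more positive and 104 a more negative cold change in fab1. The sign was kept, so a stronger fall in fab1 counts as more negative. COR15B had a cold change of 4.05 in fab1, against 2.02 to 3.37 in the 4 lines, a difference of 1.35 (SE 0.423, unadjusted p = 0.012). The cold change of COR15A was 2.88 in fab1 and lay within the 2.52 to 2.94 of the 4 lines.

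The 3 genes with the lowest p among more positive cold changes were AT2G18900, PPR336 and AT3G06530. AT2G18900 gave 17.2 at ambient temperature and 79.4 in the cold in fab1, against 31.9 to 83.8 and 42.0 to 106.5 in the 4 lines. Its cold change was 2.11 in fab1 and 0.34 to 0.56 in the 4 lines, a difference of 1.65 (SE 0.275, unadjusted p = 0.000265). PPR336, a pentatricopeptide repeat protein of mitochondrial ribosomes, gave 54.0 and 175.4 in fab1. In the 4 lines PPR336 gave 54.4 to 140.3 at ambient temperature and, in the cold, 69.5 to 198.1, and the difference of its cold change was 1.31 (SE 0.244). AT3G06530 gave 32.7 and 117.3 in fab1, against 43.4 to 83.7 and 61.7 to 118.5 in the 4 lines, with a difference of 1.3 (SE 0.258). In each of the 3 genes fab1 was the lowest line at ambient temperature and was exceeded only by Col-0 in the cold.

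The more negative cold changes with the lowest p were those of AT5G65750, AT2G23690 and AT4G19160. AT5G65750 gave 60.4 and 33.1 in fab1, against 23.3 to 48.0 and 41.7 to 61.1 in the 4 lines. AT2G23690 gave 33.3 and 7.0, against 24.3 to 29.5 and 15.0 to 21.8. AT4G19160 gave 399.5 and 83.7, against 254.3 to 353.4 and 85.6 to 134.8. All 3 were above the 4 lines at ambient temperature in fab1 and below them in the cold. The cold change of AT2G23690 was −2.02 in fab1, against −0.69 to −0.4 in the 4 lines. For AT4G19160 it was −2.23, against −1.55 to −1.31, so both genes fell more in fab1. AT5G65750 changed by −0.84 in fab1, against 0.08 to 0.8 in the 4 lines.

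Most tested probe sets of a list of ribosome assembly factors had a larger cold change in fab1 than in any of the 4 lines, with 0 past the test. Ribosomes are assembled in the nucleolus, where RNA polymerase I transcribes ribosomal RNA and a large set of processing factors, most of them first described in yeast, cuts and folds it. The list of 50 such loci was written after 7 of them had been seen among the leading cold-change genes, so the list carries no test. It had 34 named probe sets, of which 33 were tested, and 0 passed in the cold-change comparison. The cold change of fab1 exceeded that of all 4 lines in 28 of the 33, against 17.6% of all probe sets. The difference was positive in 32 of the 33, against 6841 of all 14107 probe sets. The 33 probe sets were read from the same arrays and are not independent of each other, so the count is a description. The median difference of the cold change was 0.72, with a range of −0.38 to 2.16, against −0.01 for all probe sets. Without the 7 genes seen first, fab1 exceeded the 4 lines in 20 of 25, against 17.6% of all probe sets. The median was then 0.65, a description on the same arrays and no independent count.

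By line, the median cold change of the 33 probe sets was 1.28 in fab1, against 0.64 in Col-0, 0.58 in Col-aeq, 0.69 in 35S-FAD3 and 0.48 in fad3/7/8. It was 0.65 in fad2. The median signal at ambient temperature was 43.8 in fab1, against 75.4 in Col-0, 46.5 in Col-aeq, 46.0 in 35S-FAD3 and 46.9 in fad3/7/8. In the cold it was 114.5 in fab1, against 118.5 in Col-0, 78.0 in Col-aeq, 69.6 in 35S-FAD3 and 61.2 in fad3/7/8. The fab1 median was thus lowest at ambient temperature, close to 3 of the lines, and close to Col-0 in the cold. At ambient temperature fab1 lay below all 4 lines for 16 of the 33 probe sets, against 16.9% of all probe sets. In the cold it lay above all 4 for 5, against 13.9%. Over both temperatures together the list median was 0.02.

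NRPA1 and NRPA2 encode the largest subunits of RNA polymerase I. NRPA2 gave 86.9 at ambient temperature and 227.9 in the cold in fab1, against 155.9 and 236.0 in Col-0, 60.2 and 163.9 in Col-aeq, 89.0 and 137.4 in 35S-FAD3, and 82.4 and 124.9 in fad3/7/8. The cold change of NRPA2 was 1.37 in fab1, within the 0.59 to 1.42 of the 4 lines. For NRPA1 it was 1.84 in fab1, also within the 0.33 to 1.94 of the 4 lines. IMP4, named for a yeast protein of the U3 small nucleolar particle, gave 81.7 and 209.2 in fab1, against 144.0 and 225.4 in Col-0, 79.3 and 144.0 in Col-aeq, 97.3 and 166.7 in 35S-FAD3, and 101.8 and 118.1 in fad3/7/8. Its cold change was 1.34 in fab1 and 0.21 to 0.85 in the 4 lines. YAO, a nucleolar protein of ribosomal RNA processing, had a cold change of 1.5 in fab1, against 0.38 to 1.19 in the 4 lines.

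AT3G12860 had the largest difference of the list, 2.16 (SE 0.52, unadjusted p = 0.00284, adjusted p = 1.0 in limma). It gave 6.2 and 39.7 in fab1, against 26.1 and 54.0 in Col-0, 44.7 and 34.6 in Col-aeq, 18.1 and 21.0 in 35S-FAD3, and 20.0 and 22.1 in fad3/7/8. Its size rests on an ambient signal of fab1 far below the filter level. AT3G05060 gave 75.0 and 193.5 in fab1, against 83.4 to 153.9 at ambient temperature and, in the cold, 115.9 to 176.2. AT5G65900 was the one gene of the list with a negative difference, −0.38 (SE 0.331), with 54.1 and 49.0 in fab1, against 36.4 to 58.6 and 52.1 to 60.7.

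**Figure D4:**
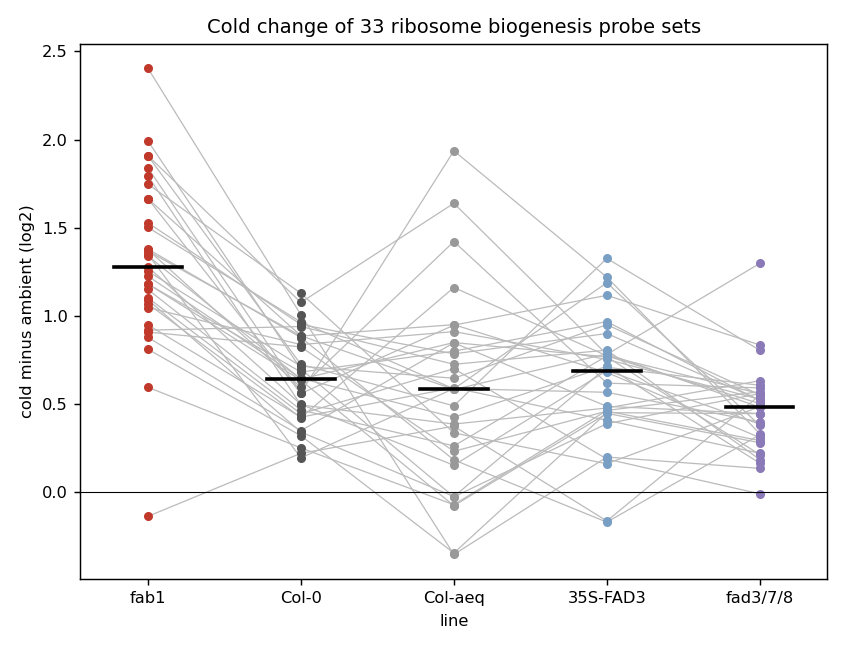
Cold change (log2 signal in the cold minus ambient) of 33 probe sets of ribosome biogenesis factors in fab1 and the other 4 lines. Each point is a probe set, grey lines join its 5 values, and black bars are medians, which stand at 1.28 in fab1 and between 0.48 and 0.69 in the 4 lines.

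With the 2 Col-aeq arrays left out, 0 probe sets passed in either test, and fab1 lay outside the remaining 3 lines at both temperatures for 1398 probe sets. The ribosome biogenesis count was then 31 of 33, against 25.3% of all probe sets.

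One probe set, with no listed gene, passed when fad3/7/8 was left out. It gave 24.7 and 15.7 in fab1, against 112.7 and 98.8 in Col-0, 91.8 and 121.1 in Col-aeq, 121.7 and 118.3 in 35S-FAD3, and 21.2 and 20.2 in fad3/7/8. Its signal was thus as low in fad3/7/8 as in fab1. The difference was −1.81 (SE 0.673, adjusted p = 0.999 in limma) with fad3/7/8 and −2.39 (SE 0.219, adjusted p = 0.00785) without it.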

How the data were processed

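Transcripts of whole seedlings were measured on 12 Affymetrix ATH1 arrays, of which 10 entered the comparison. The authors deposited a MAS5 signal per probe set, an intensity on a linear scale. The submitters' processing notes name MAS5 and GCOS; their versions and settings are not stated there. The authors' values had a mean of 100.0 on every array after trimming 2% from each end, so they were not scaled again. The median signal was 34.5 to 39.3, 182 values were 0, and 0 pairs of arrays were identical. All arrays are labelled replicate 1, and their number limits the precision.

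GEO's platform table lists 14016 of 22810 probe sets, 13513 with 1 gene, 503 with several and 8794 with none; 13436 of the 13513 matched RefSeq (TAIR10.1). The 64 control probe sets served only for quality.

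The offset 1.6, the 10th percentile of all values, was added before taking log2, which understates changes of low signals. The sizes depended on it. With an offset of 16 the difference was −0.62 in place of −0.89 for AT1G73930 and −0.44 in place of −0.78 for AUR3. For CCMH it was 0.44 in place of 0.65. limma 3.58.1 in R 4.3.3 fitted temperature as a block and line as a random block (correlation 0.219) with an intensity trend and 7 residual degrees of freedom. The cold change used 5 within-line differences (3 residual degrees of freedom). Tests were two-sided. The fit of fab1 against the 4 lines, but not that of the cold change, was run on simulated data. These had no shared line effect, so they do not show how the fit behaves with such an effect. Ranges were counted without a test. Python 3.11.15 with matplotlib 3.10.9, NumPy 2.4.6 and pandas 2.3.3 made the tables and figures.

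The members and 24 gene lists (144 genes by locus and 14 lists by name) were chosen with earlier results of these data known. Named were, of single-gene probe sets, those that passed, the 12 above and 12 below with the largest gap, the 3 lowest p for cold change in each direction, every fatty acid synthesis and desaturase gene, and the 2 lowest p of each other list; further list members named in the text, those of the ribosome biogenesis list included, were chosen after their values were seen. The lists for desaturases, glycerolipids, elongation and wax, salicylate, resistance genes, plastid-encoded genes, seed storage and ribosomal proteins had 0 named probe sets, and heat shock proteins had 0 tested. Alternatives were other scalings, offsets and filters, other sets of lines, other treatments of line, array weights, each temperature alone and leaving out each array. Sequences were not used here.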

Additional observations from a re-analysis of the deposited data

Results flagged for a closer look

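In 346 groups of 4 values (the 4 other lines at 1 temperature, for each followed probe set), 16 held a flagged value. Its gap to the nearest of the others, as a share of the whole range, exceeded Dixon's 95% critical value. Chance gives about 1 in 20, so the number of flags is near that of chance. Of the 16 flagged values, 6 were on Col-aeq arrays, 4 on Col-0, 4 on fad3/7/8 and 2 on 35S-FAD3.

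At ambient temperature, the Col-aeq array stood apart low for CCMH (28.3), WRKY20 (57.7) and the root marker AT5G66390 (35.8), and high for ATG8G (124.5) and UGT88A1 (907.0). Col-0 stood apart high for AT4G13050 (114.6) and the ribosome biogenesis gene AT1G06720 (55.9) and low for APG8A (191.9), and fad3/7/8 was high for ATG8E (352.6). In the cold, Col-aeq was low for GSTU22 (40.1), Col-0 was high for AT5G08180 (224.5), and 35S-FAD3 was low for AT2G44210 (21.5) and UGT71C2 (10.9). The fad3/7/8 cold array was high for AT5G24210 (68.8) and LCB2 (140.3) and low for the root marker AT4G26010 (28.9). For AT2G44210, the 35S-FAD3 values decide the size of the difference from fab1.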

How the results depend on the processing

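By replicate number, no paired analysis was possible because every array is labelled replicate 1; ambient and cold arrays were paired by line instead, as a random block and as within-line differences. In the comparison of fab1 with the 4 lines, 0 probe sets passed in 27 of 28 alternatives and 1 passed without fad3/7/8 (the cause was not tested, and its values are given above); leaving out each array in turn gave 0 to 0. Counts at an unadjusted p under 0.05 ranged from 56 (without the Col-aeq cold array) to 892 (with array weights), against 230, and without the fab1 cold array it was 401. The cold change gave 0 in all 13 alternatives, with 209 to 859 at an unadjusted p under 0.05, against 347; it was 621 without Col-aeq. The count outside the 4 lines, 869, was 1469 with no filter, where more probe sets were tested. With fewer lines to exceed, it was 1398 without Col-aeq, 1931 without Col-0, 1441 without 35S-FAD3, 1459 without fad3/7/8 and 2897 against the control lines alone. The ribosome biogenesis count of 28 was 28 to 31 under the alternatives of scaling, offset and lines, which were chosen after seeing the data. Of 64 named genes, 15 had the other sign under an alternative, and 0 of the 24 with the largest gaps did. These 24 were chosen for lying on 1 side of all 4 lines at both temperatures. Leaving out lines or using 1 temperature therefore could not turn their sign. Of the values of the 64 named genes under the alternatives, 58 moved by more than the SE of the main fit and 1708 did not. The scalings moved the median of all probe sets by less than 0.1 on the log2 scale. Low signals limit the sizes of several results. Among them are AUR3, COR27, AT3G12860, AT4G01390, PGM, AT1G49700, AT3G49930, PDF1.2, JRG21 and the probe set of no listed gene with the widest gap.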
